A study of Arabidopsis thaliana with 18 samples.

Results

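The genes described here are those whose transcripts were lower 2 h after the addition of NaCl in Arabidopsis thaliana seedlings, whichever of 3 pretreatments the seedlings had received. They were chosen on the measured values. For every gene the mean normalized count of the 3 libraries with NaCl was divided by the mean of the 3 without it, and a gene was a member where this ratio was at most 0.7 after DMSO, after coronatine and after DPAM-1. Of 14229 genes in the table, 137 met all 3 conditions. The ratio was at most 0.7 in 478 genes after DMSO (3.36%), in 949 after coronatine (6.67%) and in 428 after DPAM-1 (3.01%). Because the NaCl ratios chose the members, their values with and without NaCl are given as a description, with no test, and they are left out where gene lists are tested for NaCl.

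By roles assigned by hand to the members alone, 15 of the 137 genes encode wall glycoproteins and 24 encode wall enzymes or other wall proteins. The same roles were not assigned to the other measured genes, so no share of all genes stands beside these counts. A growing wall is a network of cellulose fibres tied by xyloglucan and embedded in pectin, and it is loosened and rebuilt by enzymes such as the xyloglucan endotransglucosylase/hydrolases (XTHs), which cut and rejoin xyloglucan chains. Arabinogalactan proteins are heavily glycosylated proteins of the wall and the cell surface, and the fasciclin-like ones carry an adhesion domain besides. The PYR/PYL proteins are the receptors of abscisic acid, the hormone that plants make under drought and salt. When they bind it they inhibit type 2C protein phosphatases and so release the kinases of the abscisic acid response.

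Whole Col-0 seedlings grown in liquid medium were sampled in 6 groups of 3 libraries. The DMSO group received 1% DMSO, the coronatine group 5 µM coronatine, and the DPAM-1 group 5 µM DPAM-1. The other groups received the same agent and in addition 100 mM NaCl, and all carry the same wild-type genotype. Compounds were given 4 days after germination, NaCl followed 16 h later, and the harvest came 2 h after the salt. Coronatine is made by plant-pathogenic bacteria and acts in place of the plant's own jasmonate hormone, and DPAM-1 is a compound given in the labels by its code name only. The labels name no solvent for the compound groups. For the groups without NaCl they give no mock treatment and no time of harvest, so solvent, handling and time cannot be told apart from compound and salt.

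Libraries were made by Lasy-Seq, which reads transcripts from their 3′ ends, and held between 13638981 and 37279056 reads. The lowest count in the table was 30, so a gene pushed below that level in any library is outside it. The labels do not say that libraries came from separate cultures, so p-values measure the spread between these libraries, which may be technical. All 3 shoot and 4 root markers examined were in the table, and every gene in it has at least 30 reads in each library. The 3 maturing seed markers looked for, CRA1, CRU3 and OLEO1, were not in the table, which does not show that they had no reads. Fewer cells of a type and less RNA per cell cannot be told apart in whole seedlings.

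The median NaCl ratio of the 137 genes was 0.579 after DMSO, 0.552 after coronatine and 0.545 after DPAM-1, beside 0.999, 1.00 and 1.00 over all genes. The lowest ratios were 0.278, 0.212 and 0.231. A ratio of at most 0.5 was found in 32 members after DMSO, 49 after coronatine and 54 after DPAM-1, and 17 members had it in all 3. The share of all normalized counts that the members took was 1.69% to 2.03% in the DMSO libraries and 1.00% to 1.13% with NaCl. It was 0.793% to 0.835% after coronatine and 0.396% to 0.403% after coronatine and NaCl, and 1.87% to 2.05% after DPAM-1 and 0.991% to 1.02% after DPAM-1 and NaCl. All 3 NaCl libraries lay below all 3 without NaCl in 130 members after DMSO (14.3% of all genes), 130 after coronatine (18.7%) and 137 after DPAM-1 (15.4%). In 125 members this held in all 3 pretreatments, beside 4.41% of all genes, and nothing is read from these shares, since the same values chose the members.

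**Figure D1:**
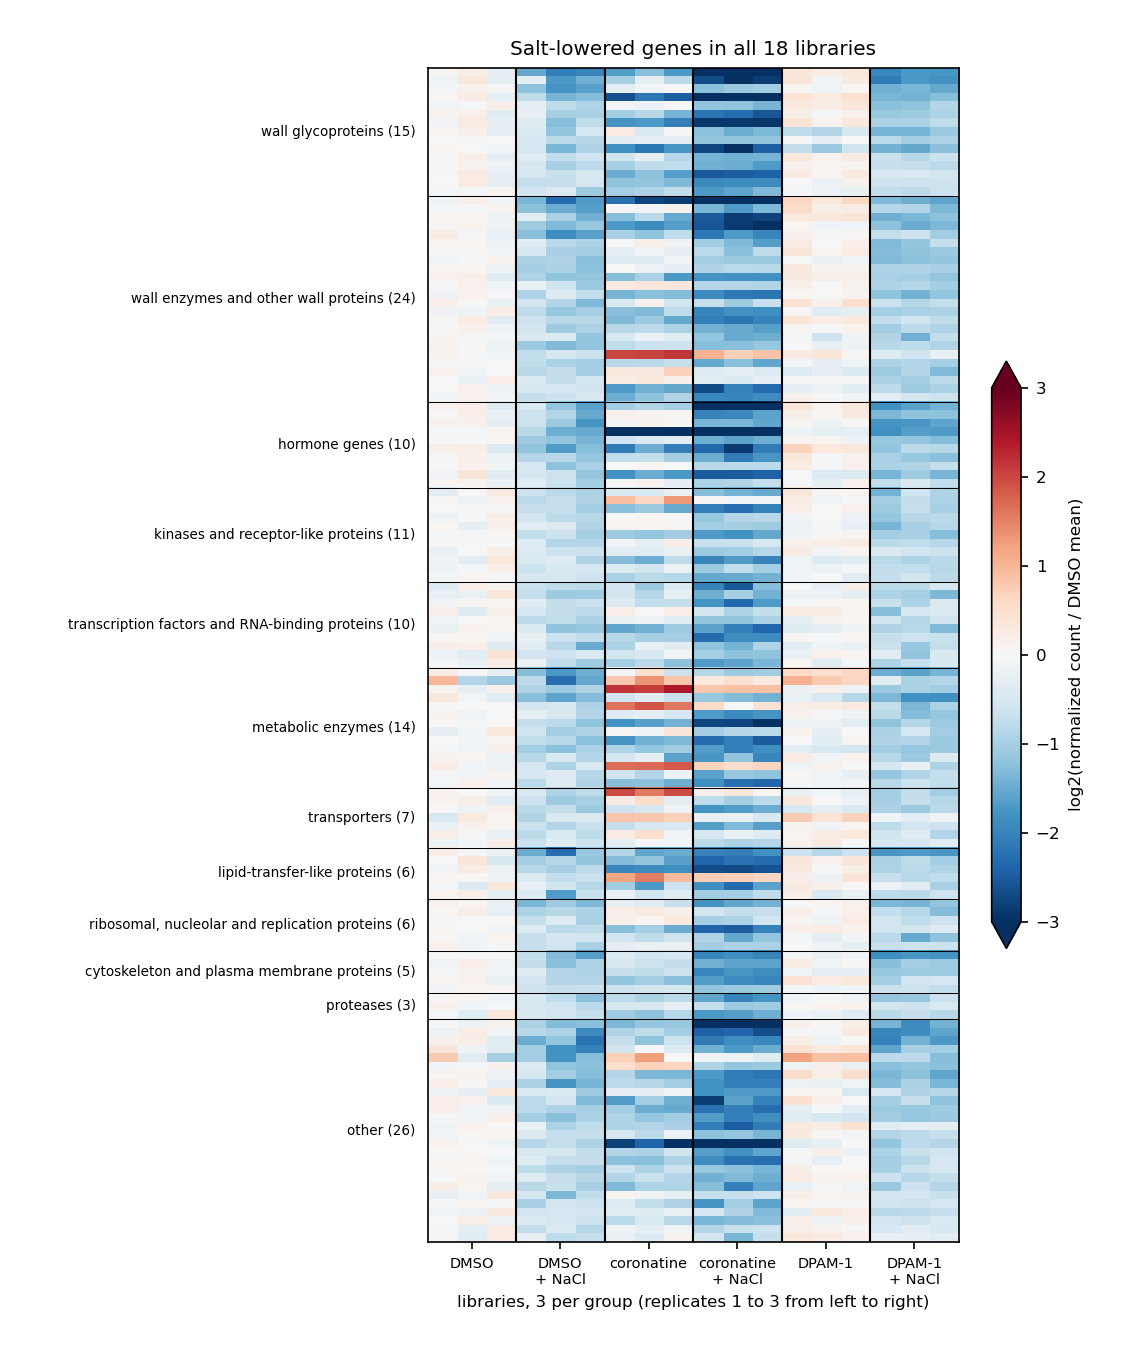
Log2 of the normalized count over the DMSO mean for the 137 genes (one line per gene, grouped by role) in all 18 libraries. The NaCl columns are blue after each pretreatment, the coronatine columns are blue for most genes already without NaCl (median 65.8% of the DMSO mean), and the DPAM-1 columns without NaCl are close to DMSO (median 102%).

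The threshold passes through a continuous range. Among the members, 56 had a highest ratio of 0.65 or more, and 88 further genes had a highest ratio over 0.7 and up to 0.75. Just inside were AT3G02910, an AIG2-like protein, with a ratio of 0.7 after DMSO, and AT3G12860, a NOP56-like protein of ribosomal RNA processing, with 0.699 after DPAM-1. Just outside were Cand1 (AT1G57680), with 0.701 after DMSO, and the receptor-like kinase gene AT3G23750, with 0.703 after coronatine.

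The same rule was applied to 2 replicates of each group and the ratios were read in the remaining one. With replicate 1 held out, 150 genes were chosen, and 142 of them (94.7%) were below 1 in all 3 pretreatments in the held-out libraries, beside 21.9% of all genes. All 3 held-out ratios were at most 0.7 in 61 of these genes (40.7%), beside 0.661% of all genes. With replicate 2 held out, 121 of 132 genes (91.7%) were below 1 throughout, beside 19.3% of all genes, and 67 (50.8%) were at most 0.7, beside 0.956%. With replicate 3 held out the counts were 119 of 127 (93.7%), beside 22.3%, and 75 (59.1%), beside 1.34%. A gene at 0.7 or less in the held-out libraries is below 1 by construction, so the first count of each pair includes the second. The held-out libraries may be technical repeats of those that chose the genes, so these counts do not stand for a repeated experiment. Same-numbered DMSO and coronatine libraries without NaCl also count as paired, so the 3 held-out ratios are not independent of each other.

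The member ranked first by the mean of their 3 log2 ratios was FLA9 (AT1G03870), a fasciclin-like arabinogalactan protein of the cell surface. The window around its annotated start is shown with those of the members PYL4 (AT2G38310), an abscisic acid receptor gene picked by name, and AT3G09680, a ribosomal protein gene. AT3G09680 was picked as the first-ranked member whose window holds the site II element in the letters TGGGCC. The presence of that element in it was fixed by the choice. Each window is 250 bases before and 50 from the annotated gene start, on the gene's strand from 5′ to 3′, from RefSeq's TAIR10.1 sequence. The windows are chr1:983495-983794 (minus strand), chr2:16049668-16049967 (plus strand) and chr3:2970322-2970621 (minus strand). Capitals mark any of the 12 short motifs listed further on.
FLA9: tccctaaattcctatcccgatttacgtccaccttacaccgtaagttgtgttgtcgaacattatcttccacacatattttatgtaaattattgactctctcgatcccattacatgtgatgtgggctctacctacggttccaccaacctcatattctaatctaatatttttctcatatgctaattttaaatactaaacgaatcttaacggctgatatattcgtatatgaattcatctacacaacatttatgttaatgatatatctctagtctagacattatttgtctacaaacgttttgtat
PYL4: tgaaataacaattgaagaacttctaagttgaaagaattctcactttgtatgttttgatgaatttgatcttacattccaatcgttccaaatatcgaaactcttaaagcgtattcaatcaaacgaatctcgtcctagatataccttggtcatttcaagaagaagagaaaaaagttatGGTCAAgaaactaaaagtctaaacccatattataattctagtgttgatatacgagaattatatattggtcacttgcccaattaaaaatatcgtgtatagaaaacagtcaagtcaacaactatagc
AT3G09680: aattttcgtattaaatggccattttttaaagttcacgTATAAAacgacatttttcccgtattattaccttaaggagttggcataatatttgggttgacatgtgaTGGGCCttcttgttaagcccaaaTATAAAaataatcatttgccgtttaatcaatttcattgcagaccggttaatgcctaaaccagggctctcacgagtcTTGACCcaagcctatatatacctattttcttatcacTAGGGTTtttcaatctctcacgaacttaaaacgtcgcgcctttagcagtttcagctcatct
None of the 12 motifs, in the exact letters searched, occurs in the FLA9 window. This says only that those letters are not in these 300 bases. Other spellings, such as TTGACT and TGGGCT in the FLA9 window, were not searched and are not marked in any window. The PYL4 window holds the W-box core on the opposite strand, 75 bases before the start. That of AT3G09680 holds a site II element 146 bases before the start, a W-box core, a telo-box on the opposite strand and 2 TATA boxes.

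Among wall glycoproteins, 15 genes were members, with median NaCl ratios of 0.614 in DMSO, 0.497 after coronatine and 0.523 after DPAM-1. FLA9 had 8812, 9698 and 7291 normalized counts in the 3 DMSO libraries and 2991, 2055 and 2129 with NaCl. After coronatine it had 2688, 3620.5 and 2602 without and 887, 848 and 983 with NaCl, and after DPAM-1 11126, 9993 and 10935 without and 2210.5, 2621 and 2583 with NaCl. Every NaCl library was below every library of the same pretreatment without NaCl, and the ratios of means were 0.278, 0.305 and 0.231. AGP17 (AT2G23130), a lysine-rich arabinogalactan protein, had 778, 1060.3 and 695 in DMSO and 686, 258 and 312 with NaCl, and after coronatine 421, 687 and 486 and with NaCl 131, 91.3 and 117. After DPAM-1 it had 1103, 795 and 1016 without and 199, 257 and 242 with NaCl. The first DMSO + NaCl library stood close to the DMSO libraries for this gene, and AGP17 had the widest range of ratios among all members, from 0.496 after DMSO to 0.212 after coronatine and 0.239 after DPAM-1.

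The other fasciclin-like members were FLA2, FLA13 and FLA18. FLA2 (AT4G12730) had 3012, 3484 and 3068 normalized counts in DMSO and 1375, 937 and 1029.6 with NaCl, and its ratios were 0.349, 0.497 and 0.368 after DMSO, coronatine and DPAM-1. FLA13 (AT5G44130) had 4757, 5398 and 3779.6 in DMSO, 2747, 1778 and 1886 with NaCl, 751, 1037 and 842 after coronatine and 456, 463 and 530.5 after coronatine and NaCl. These 4 groups did not overlap, and they stood in the order DMSO, DMSO + NaCl, coronatine, coronatine + NaCl from high to low. The arabinogalactan proteins AGP7, AGP13, AGP15, AGP17 and AGP21 were members, as were the leucine-rich repeat extensin LRX3, the extensin-like genes EXT13 and ELP, and 3 further proline- or hydroxyproline-rich genes known by code only.

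Wall enzymes and other wall proteins made up 24 members, with median ratios of 0.557 in DMSO, 0.586 after coronatine and 0.499 after DPAM-1. Of the XTH genes, XTH8, XTH9 and XTH17 were members. XTH17 (AT1G65310) had 873, 1109.7 and 902 normalized counts in DMSO and 371, 192 and 298 with NaCl. After coronatine it had 203, 140.0 and 135 without and 78.1, 76.7 and 82.2 with NaCl, and after DPAM-1 1496, 1215 and 1481 without and 385, 349.7 and 323 with NaCl. The coronatine libraries without NaCl overlapped those of DMSO + NaCl, and coronatine with NaCl was lowest. XTH9 (AT4G03210) had 2807, 2731 and 2365 in DMSO and 2119, 1353 and 965 with NaCl, 1084, 1508 and 919 after coronatine and 463, 368 and 383 after coronatine and NaCl, and 3276, 3266 and 3428 and 955, 1015 and 1121 after DPAM-1 without and with NaCl. Its first DMSO + NaCl library was the highest of the 3, and the ratio was 0.561 after DMSO, 0.346 after coronatine and 0.31 after DPAM-1. XTH8 (AT1G11545) had ratios of 0.443, 0.482 and 0.408.

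DGR1 (AT1G80240), a DUF642 protein of the wall, had 547, 551 and 602 normalized counts in DMSO and 243, 202 and 182 with NaCl, 569, 533 and 613 after coronatine and 218, 176 and 224 with NaCl added, and 850.2, 644 and 664 and 315, 308 and 221 after DPAM-1. Its 3 ratios were close to each other, at 0.368, 0.36 and 0.391, and each NaCl group lay apart from its partner. The remaining wall members included SKU5 with its relatives sks4 and sks5, the glycosyltransferase genes LGT8, LGT9 and GATL6, the mannan synthase-like genes CSLA03 and CSLA11, the beta-xylosidase gene XYL4, TBL45 of the trichome birefringence-like family, and the germin-like gene GER1. Their ratios lay between 0.370 (LGT9 after DPAM-1) and 0.677 (GATL6 after DMSO).

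**Figure D2:**
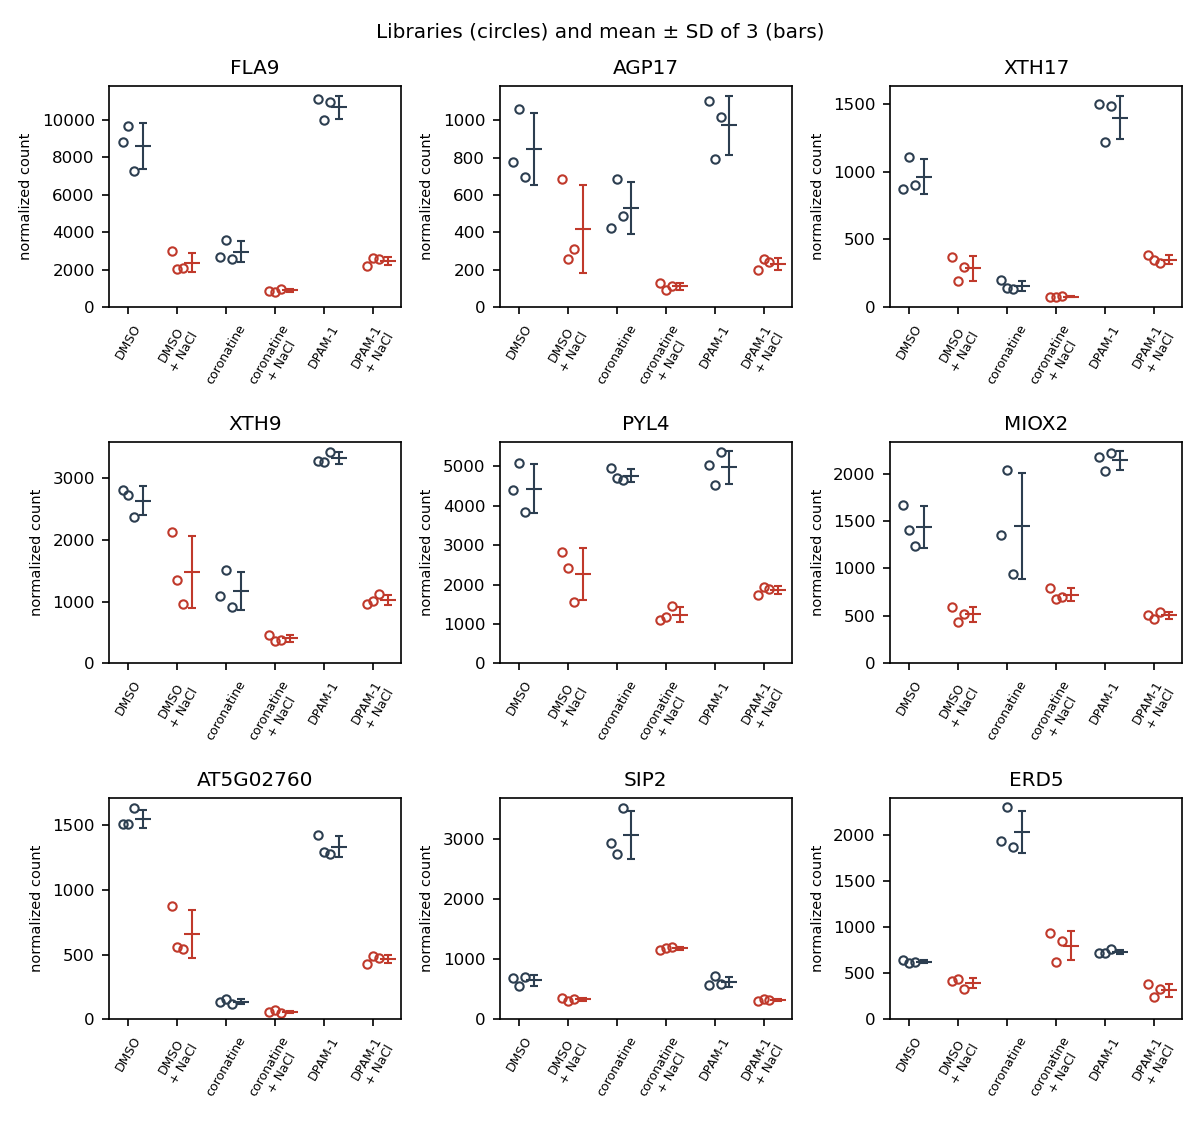
Normalized counts of 9 members by group, with each library as a circle and the mean ± SD of 3 as a bar. NaCl groups (red) are below their partners (dark) in each panel, coronatine alone is low for FLA9, XTH17, XTH9 and AT5G02760, and coronatine alone is high for SIP2 and ERD5.

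Hormone genes made up 10 members, with median ratios of 0.501 in DMSO, 0.498 after coronatine and 0.399 after DPAM-1. PYL4 had 4397, 5069 and 3839 normalized counts in DMSO and 2835, 2413 and 1554 with NaCl. After coronatine it had 4946, 4705 and 4644 without and 1097, 1169 and 1452 with NaCl, and after DPAM-1 5039, 4519 and 5359.8 without and 1734, 1932 and 1891 with NaCl. The 3 groups without NaCl overlapped each other, while every NaCl library lay below them. PYL5 (AT5G05440) had 1049, 1035 and 776 in DMSO and 607, 444 and 276 with NaCl, and ratios of 0.464, 0.37 and 0.317. PYL1 (AT5G46790) had 880.0, 882 and 718 in DMSO and 653, 532 and 407 with NaCl, and its ratios of 0.642, 0.573 and 0.67 were the least low of these 3 receptors.

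AT1G72430, a SAUR-like gene of the small auxin-responsive family, had 1975, 2093 and 1389.7 normalized counts in DMSO and 1296, 796 and 591 with NaCl. Its libraries held 895, 986 and 917 after coronatine and 228, 227 and 216 after coronatine and NaCl, and its ratios were 0.492, 0.24 and 0.273. The ratio was least low after DMSO, where the first NaCl library was again the highest. AT5G02760, a type 2C protein phosphatase of another clade than those the abscisic acid receptors inhibit, had 1502, 1503 and 1627 in DMSO, 875, 560.1 and 543 with NaCl, 134, 155 and 121 after coronatine and 54.4, 68.8 and 51.0 after coronatine and NaCl. These 4 groups did not overlap, and the DPAM-1 libraries had 1422, 1291 and 1277 without and 429, 487 and 476 with NaCl. Other members with hormone roles were ACO1 of ethylene synthesis, BEE1, a brassinosteroid-induced transcription factor gene, CKX7 of cytokinin breakdown, SMT3 of sterol synthesis and BRS1, a carboxypeptidase linked to brassinosteroid signalling, with ratios between 0.381 (ACO1 after DPAM-1) and 0.681 (ACO1 after coronatine).

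Metabolic enzymes made up 14 members, with median ratios of 0.554 in DMSO, 0.524 after coronatine and 0.547 after DPAM-1. MIOX2 (AT2G19800), a myo-inositol oxygenase that makes the wall sugar precursor glucuronate, had 1672, 1403 and 1238 normalized counts in DMSO and 597, 435 and 522 with NaCl, 1354, 2041 and 938 after coronatine and 799, 679 and 699 with NaCl added, and 2179, 2026 and 2217 and 512, 470.0 and 543 after DPAM-1. Its coronatine libraries were widely spread and overlapped DMSO. The ratio was 0.36 after DMSO, 0.502 after coronatine and 0.237 after DPAM-1. SIP2 (AT3G57520), a raffinose-hydrolysing galactosidase, had 696, 551 and 708 in DMSO and 351, 306 and 348 with NaCl, and 2932, 2750.4 and 3527 after coronatine and 1161, 1194 and 1198 after coronatine and NaCl. The coronatine + NaCl libraries were below coronatine alone but above every DMSO library. ERD5 (AT3G30775), the proline dehydrogenase that breaks down the osmolyte proline, had 644, 618 and 619 in DMSO, 419, 439 and 330.1 with NaCl, 1934, 2303 and 1873 after coronatine and 934, 627 and 847 after coronatine and NaCl. Its ratio was 0.632 after DMSO, 0.394 after coronatine and 0.433 after DPAM-1.

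FTM1 (AT1G43800), a stearoyl-acyl carrier protein desaturase, had 339, 92.9 and 79.3 normalized counts in DMSO and 98.8, 35.2 and 59.2 with NaCl. Its first DMSO library was far above the others, and the DMSO groups with and without NaCl overlapped, so its ratio of 0.378 rests on that library. AT4G33560, a wound-responsive family gene, also varied in DMSO, with 308, 143 and 90.7 without and 87.2, 52.3 and 74.2 with NaCl. XPL1 (AT3G18000), a phosphoethanolamine methyltransferase of phosphatidylcholine synthesis, had 3199, 3025 and 3664 in DMSO and 1636, 1371 and 1703 with NaCl. The member AT3G17998 has the same count as XPL1 in every library, and both are taken as 1 signal.

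The cytoskeleton and plasma membrane proteins among the members were PATL1 and PATL2, PCAP1, ACT11 and TUA5. PATL2 (AT1G22530), a patellin of membrane traffic, had 1583, 1557 and 1478 normalized counts in DMSO and 918, 625 and 489.6 with NaCl, 1135, 1012 and 1077 after coronatine and 397, 432 and 391 with NaCl added, and 1501, 1336 and 1455 and 433, 461 and 441 after DPAM-1. Each NaCl group lay below its partner, and the first DMSO + NaCl library was the highest of all NaCl libraries. TUA5 shares nearly all its coding sequence with TUA3, which fell just outside the threshold with 0.703 after coronatine. Their reads may be uncertain between the copies, which was not examined. The same holds for AT4G12510, which has near copies beside it.

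Kinases and receptor-like proteins gave 11 members, with median ratios of 0.617 in DMSO, 0.602 after coronatine and 0.536 after DPAM-1, among them THE1, a receptor-like kinase that senses wall integrity, BAM2, SRF6, CRK29 and CIPK15. Transcription factors and RNA-binding proteins gave 10, with 0.613 in DMSO, 0.569 after coronatine and 0.628 after DPAM-1, including the homeodomain gene HAT1, TCP11, BZIP61 and BZO2H3. The 7 transporters had 0.61 in DMSO, 0.486 after coronatine and 0.608 after DPAM-1 and included YSL1 and ZIP5 of metal transport. There were 6 lipid-transfer-like proteins, 6 ribosomal, nucleolar and replication proteins, and 3 proteases. The other 26 members had no assigned role. Of these AT1G24530, a WD40-repeat gene, had 799, 711 and 852 normalized counts in DMSO and 412, 320.5 and 328 with NaCl, and the lowest ratio of these 26, 0.23, after coronatine. The genes AT1G72416 of a DnaJ-domain family, AT4G21870 of an HSP20-like family and AT5G66985 of unknown function had ratios between 0.276 and 0.453.

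**Figure D3:**
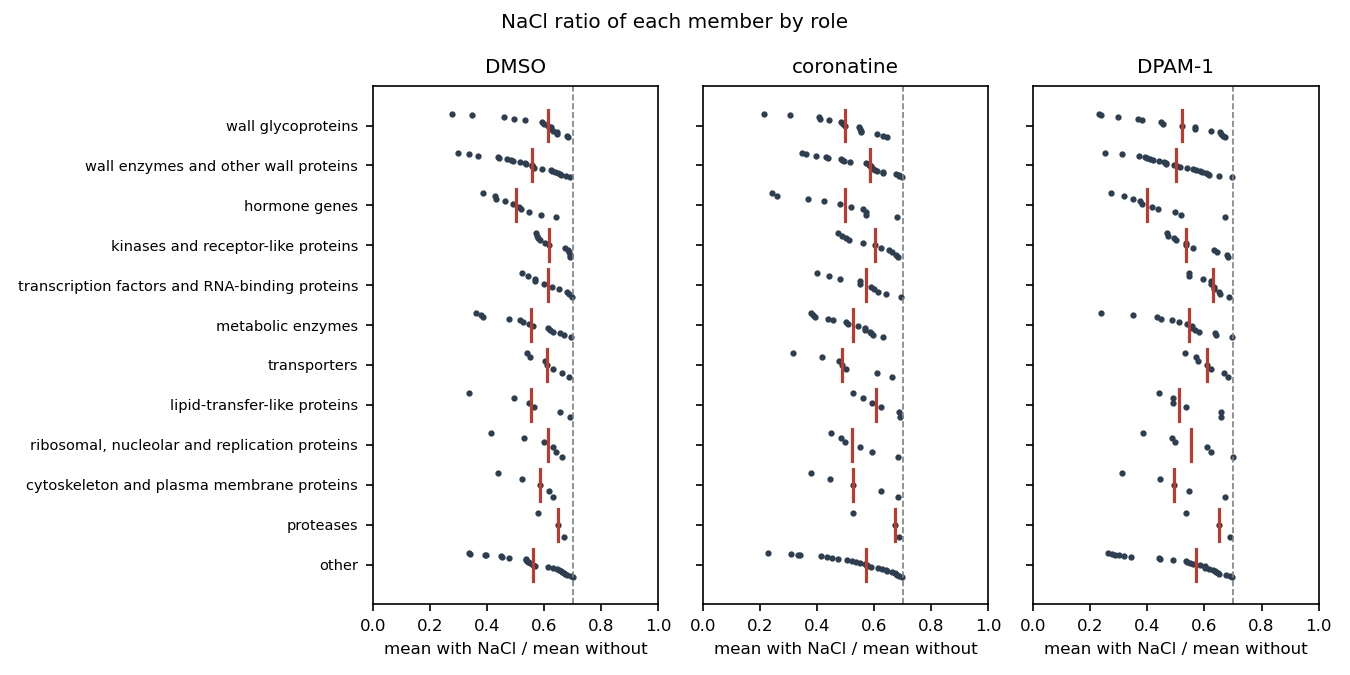
NaCl ratio of each member by role after the 3 pretreatments, with dots for genes, a red line for the median of each role and a dashed line at 0.7. Ratios below 0.3 occur among wall glycoproteins, wall enzymes, hormone genes, metabolic enzymes and genes of no assigned role.

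The first DMSO + NaCl library stood apart from its 2 partners across the members. It was the highest of the 3 in 92 of 137 members (67.2%), beside 29.1% of all genes, and its median over members was 64.2% of the DMSO mean, against 56.0% and 51.8% in the other 2. Without it 151 genes met the rule, of which 134 were among the 137. Without the third DMSO + NaCl library 117 did, 115 of them among the 137.

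Coronatine without NaCl was compared with DMSO, a contrast that the rule did not use, although the libraries of both groups are denominators of its ratios. Most of the salt-lowered genes were already lower after coronatine. By edgeR's quasi-likelihood test at an adjusted p under 0.05 over all 14229 genes, 87 of the 137 were lower and 11 higher, where 17.4% of all genes were called lower and 17.4% higher. The median log2 fold change was -0.61 over the members and -0.01 over all genes. Among wall glycoproteins 12 of 15 were lower and 0 higher, and with the wall enzymes and other wall proteins 14 of 24 were lower and 2 higher. All 5 cytoskeleton and plasma membrane genes and all 3 proteases were lower, 6 of 10 hormone genes were lower and 0 higher, and of the 14 metabolic enzymes 8 were lower and 4 higher. Kinases and receptor-like proteins had 6 of 11 lower and 1 higher, transcription factors and RNA-binding proteins 6 of 10 lower, transporters 2 of 7 lower and 2 higher, and lipid-transfer-like proteins 4 of 6 lower and 1 higher. Of the ribosomal, nucleolar and replication proteins 3 of 6 were lower, and of the 26 genes of no assigned role 18 were lower and 1 higher.

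The summed level of the 4 root markers differed in this contrast. It was 5669 to 5749 normalized counts in the DMSO libraries and 3977 to 4489 after coronatine, while the sum of the 3 shoot markers was 505816 to 621264 and 596732 to 625069. Under NaCl the root sum was 5049 to 7147 after DMSO and 4315 to 5029.9 after coronatine. The root sum is mostly 1 gene, the aquaporin gene PIP2;2, which made up 81.8% to 86.6% of it in DMSO and 78.5% to 82.2% after coronatine. Of the 4 markers, PIP2;2 and CASP1 were lower in every coronatine library than in every DMSO library, COBL9 overlapped, and EXPA7 was higher, with 124 to 201 normalized counts in DMSO and 243 to 396 after coronatine. The part of these differences in the members' levels was not tested. With library totals in place of TMM factors the median of all genes moved to -0.24 and that of the members to -0.83. The split was then 102 lower and 8 higher. The share of all genes called was not taken under library totals, so nothing is read from that split.

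AT5G02760 was lowest after coronatine without NaCl relative to DMSO, at -3.49 ± 0.15 (log2 fold change ± SE), adjusted p = 7e-15 in edgeR, which is 11.3-fold lower. Next were AT3G45160, a putative membrane lipoprotein with 1508, 1413 and 1295 normalized counts in DMSO and 200.4, 265 and 142 after coronatine (-2.78 ± 0.16, adjusted p = 1.14e-12 by edgeR), XTH17 (-2.57 ± 0.18, adjusted p = 3.86e-11), FLA13 (-2.41 ± 0.15, adjusted p = 2.91e-12) and AGP13 (-1.92 ± 0.18, adjusted p = 7.09e-09). The libraries of the 2 groups did not overlap for any of these 5 genes. FLA9 was lower at -1.54 ± 0.13 (log2 fold change ± SE), adjusted p = 1.78e-09. AGP17 was called by edgeR with -0.68 ± 0.25 and adjusted p = 0.0391, but its adjusted p ranged from 8.74e-06 to 0.186 over 16 alternatives, with 0.186 without DMSO replicate 2 and 0.112 in DESeq2.

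The abscisic acid receptors were not among the genes lower after coronatine. PYL4 differed from DMSO by 0.10 ± 0.15 (95% interval -0.20 to 0.40, adjusted p = 0.652 by edgeR), PYL5 by 0.00 ± 0.17 (interval -0.34 to 0.35, adjusted p = 0.989) and PYL1 by -0.04 ± 0.14 (interval -0.34 to 0.25, adjusted p = 0.862). FLA2 differed by -0.13 ± 0.11 (interval -0.36 to 0.10, adjusted p = 0.398) and DGR1 by 0.01 ± 0.13 (interval -0.27 to 0.28, adjusted p = 0.979). These genes did not pass the test, which does not show that their levels were equal.

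The genes that rose after coronatine were led by SIP2, at 2.23 ± 0.11 (log2 fold change ± SE), adjusted p = 4.82e-14 in edgeR, 4.69-fold higher. CSLA11 had 115, 106 and 102 normalized counts in DMSO and 433, 441 and 475 after coronatine (2.06 ± 0.14, adjusted p = 1.82e-11 by edgeR). AT5G14120, a major facilitator transporter, had 663, 619 and 551 and 2424, 1810.2 and 2362 (1.84 ± 0.12, adjusted p = 1.35e-11). UGT85A1 (AT1G22400), a glycosyltransferase able to glucosylate the cytokinin zeatin, had 758, 606 and 576 and 2065, 2110.4 and 2327 (1.74 ± 0.14, adjusted p = 2.26e-10), and ERD5 rose by 1.70 ± 0.14 (adjusted p = 6.02e-10). In each of these 5 genes the coronatine libraries lay above all DMSO libraries, and the mean with NaCl was lower in both backgrounds, as the rule required. FTM1 was called higher at 1.02 ± 0.36 with adjusted p = 0.0305 by edgeR. Its log2 change was 1.99 without the high first DMSO library, 0.68 without DMSO replicate 3 and 0.71 without DMSO replicate 2, and its adjusted p ranged from 7.55e-06 to 0.16 over 16 alternatives and was 0.0876 in DESeq2.

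**Figure D4:**
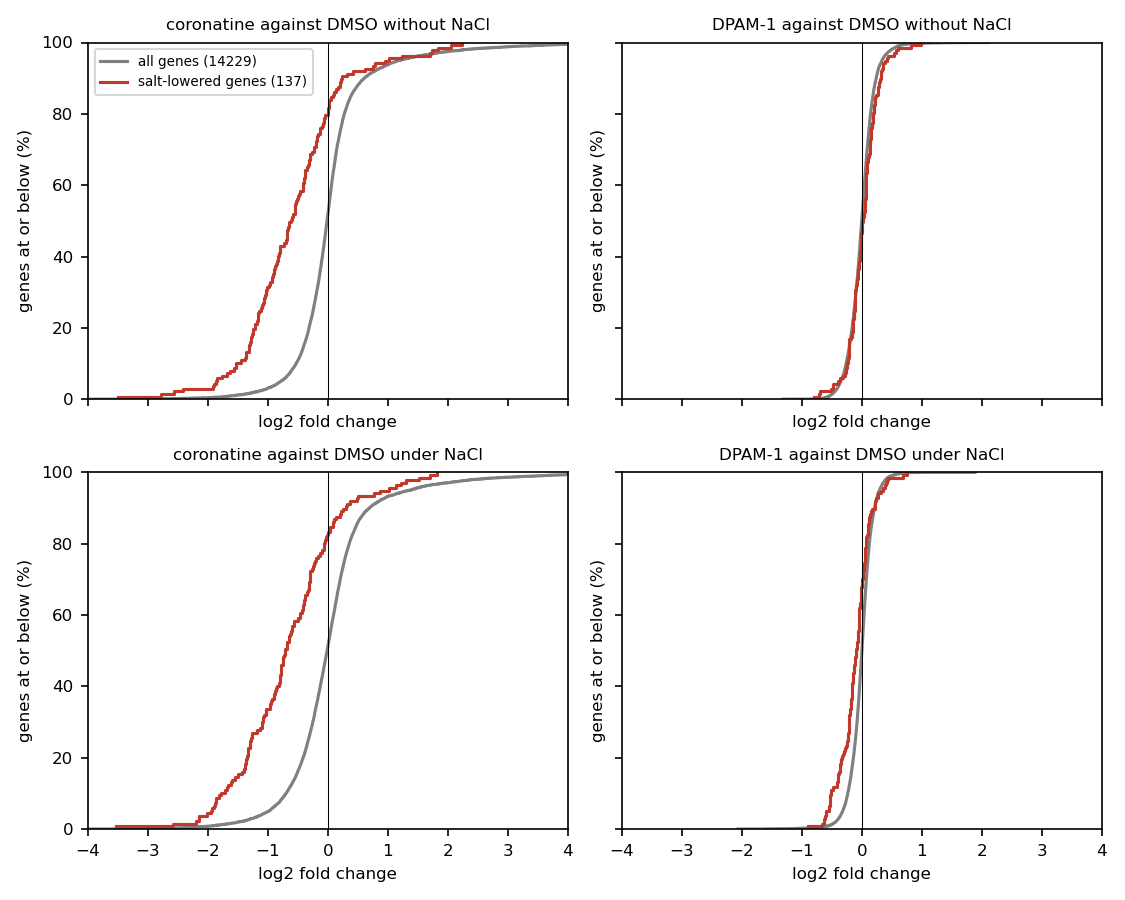
Cumulative share of genes by log2 fold change in the 4 compound comparisons, for the 137 salt-lowered genes (red) and all 14229 genes (grey). The red curve lies to the left of the grey one after coronatine, with medians of -0.61 and -0.71, and close to it after DPAM-1, with medians of 0.02 and -0.09.

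Under NaCl, coronatine was compared with DMSO in libraries that are numerators of the rule's ratios. Here edgeR called 89 members lower and 12 higher (24% and 23.8% of all genes), with a median log2 fold change of -0.71, beside -0.01 over all genes. Among wall glycoproteins 14 of 15 were lower and FLA2 alone was called higher, at 0.38 ± 0.11 with adjusted p = 0.0086; over 16 alternatives its adjusted p ranged from 0.000105 to 0.707, the highest with library totals, and its log2 change was 0.56 without the first DMSO + NaCl library. PYL4 was lower at -0.88 ± 0.15 (adjusted p = 3.53e-05), while PYL5 (-0.33 ± 0.18, adjusted p = 0.128) and PYL1 (-0.21 ± 0.15, adjusted p = 0.235) did not pass. The lowest were AT5G02760 (-3.54 ± 0.17, adjusted p = 2.64e-14), AT3G45160 (-2.59 ± 0.17, adjusted p = 7.22e-12) and AT1G24530 (-2.20 ± 0.15, adjusted p = 8.62e-12). The highest were SIP2 (1.82 ± 0.11, adjusted p = 2.37e-12), FTM1 (1.69 ± 0.38, adjusted p = 0.000844) and CSLA11 (1.52 ± 0.14, adjusted p = 5.91e-09). MIOX2 was called higher at 0.48 ± 0.18 with adjusted p = 0.0299, which ranged from 0.00145 to 0.424 over 16 alternatives, again highest with library totals. Library totals moved the median of all genes to -0.34 and that of the members to -1.04.

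Across the 6 groups the lowest mean was found after coronatine and NaCl in 107 members, after DPAM-1 and NaCl in 17 and after DMSO and NaCl in 13. The highest mean was in the DPAM-1 group in 63, in DMSO in 53 and in coronatine in 21. Relative to the DMSO mean, the median member stood at 57.9% with NaCl, 65.8% after coronatine, 34.7% after coronatine and NaCl, 102% after DPAM-1 and 52.8% after DPAM-1 and NaCl. The coronatine + NaCl mean was at most 25% of DMSO in 32 members and at most 10% in 4, namely AT5G02760 (26.6-fold lower), XTH17 (12.2-fold lower), AT3G45160 (10.8-fold lower) and AT1G24530 (10.1-fold lower). In 7 members it was above the DMSO mean. The rule itself puts the lowest mean of every member in a NaCl group and the highest in a group without NaCl. The counts in this paragraph were not taken over all genes, so no share stands beside them.

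DPAM-1 without NaCl left most of these genes without a call. By edgeR 0 of the 137 were higher and 3 lower (0.801% and 0.218% of all genes), 22 had an unadjusted p under 0.05 in either direction, and DESeq2 called 0 higher and 4 lower. No share of all genes stands beside the count at unadjusted p or those from DESeq2, so nothing is read from them. The median log2 fold change was 0.02. AGP13 (AT4G26320), a short arabinogalactan peptide, had 1087, 1055 and 979.7 normalized counts in DMSO and 639, 478 and 685 after DPAM-1, and the groups did not overlap. It was lower at -0.80 ± 0.17 (log2 fold change ± SE), adjusted p = 0.0194 in edgeR, beside -1.92 ± 0.18 after coronatine, and both comparisons share the DMSO libraries. The adjusted p ranged from 5.44e-05 to 0.13 over 16 alternatives, with the highest without DPAM-1 replicate 2. XPL1, counted with AT3G17998 as 1 signal, had 2597, 2369.8 and 2214 after DPAM-1, below every DMSO library. It was lower at -0.47 ± 0.10 (log2 fold change ± SE), adjusted p = 0.0209, with a range of adjusted p from 0.00325 to 0.136, the highest without DPAM-1 replicate 3. XTH17 stood above all DMSO libraries in each DPAM-1 library, at 0.53 ± 0.16 with adjusted p = 0.124.

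Under NaCl, DPAM-1 against DMSO gave 1 member higher and 2 lower by edgeR (0.176% and 0.401% of all genes), with 35 at an unadjusted p under 0.05 and a median log2 fold change of -0.09. DESeq2 called 2 higher and 5 lower. Here too the count at unadjusted p and those from DESeq2 have no share of all genes beside them, and nothing is read from them. PATL2 was lower at -0.62 ± 0.14 (log2 fold change ± SE), adjusted p = 0.0447 in edgeR. Without the first DMSO + NaCl library, which stood apart across the members, the PATL2 change was -0.33 with adjusted p = 0.214 by edgeR, the highest of its alternatives. The peroxidase gene AT4G33420 had 293, 413 and 332 normalized counts after DMSO and NaCl and 238, 206 and 244 after DPAM-1 and NaCl (-0.59 ± 0.12, adjusted p = 0.0209 by edgeR). The chitinase family gene AT1G56680 had 138, 91.3 and 107 and 201, 215 and 162 (0.76 ± 0.17, adjusted p = 0.0431). The 2 groups did not overlap for any of these 3 genes. None of the 3 calls held under all 16 alternatives, with adjusted p from 0.000387 to 0.214 for PATL2, 0.00355 to 0.159 for AT4G33420 and 0.00339 to 0.201 for AT1G56680. Without DMSO + NaCl replicate 3, 13 members were lower. No share of all genes was taken for that fit, so nothing is read from this count.

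The members were set beside lists of plant genes known from general biology, 22 lists with 276 measured genes. The lists were chosen with earlier results of these data known. Their counts are therefore a description and not independent support. Of these 9 were members, and the counts and medians below cover the other 267, tested for NaCl against no NaCl with edgeR. Leaving the members out removes genes of low ratio from a list by construction. All genes were called lower in 7.88% after DMSO, 12.1% after coronatine and 5.33% after DPAM-1, and higher in 9.8%, 14.7% and 6.92%. Of 13 cellulose synthesis and fasciclin-like genes, 3 were members (FLA2, FLA9 and FLA13). Of the other 10, 10 were lower after DMSO, 6 after coronatine and 8 after DPAM-1, and 0 were higher. Their median log2 change was -0.53, -0.40 and -0.38 in the 3 pretreatments, beside -0.01, -0.00 and 0.00 over all genes. They stood between -0.91 (AGP4) and -0.30 (KOR1) after DMSO. CESA3, a catalytic subunit of cellulose synthase, was at -0.69 ± 0.10 after DMSO, -0.45 ± 0.10 after coronatine and -0.51 ± 0.10 after DPAM-1 (adjusted p = 2.39e-05, 0.00196 and 0.000961 by edgeR). CESA6 was at -0.66 ± 0.09, -0.39 ± 0.09 and -0.60 ± 0.09 (adjusted p = 9.63e-06, 0.00208 and 4.67e-05).

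Of 7 abscisic acid receptors, 3 were members. Of the other 4, 1 was lower after DMSO, 2 after coronatine and 1 after DPAM-1, and 1 was higher in each pretreatment, with medians of 0.09, -0.07 and 0.21. PYR1, which was no member, was at -1.10 ± 0.11, -0.48 ± 0.11 and -1.01 ± 0.12, where the size after coronatine kept it out (adjusted p = 2.83e-07, 0.00282 and 1.9e-06 by edgeR). PYL7 was the one that rose, at 1.00 ± 0.22, 1.05 ± 0.21 and 1.04 ± 0.23 (adjusted p = 0.00257, 0.000832 and 0.0028). All 10 measured abscisic acid and osmotic stress output genes rose in the 3 pretreatments, with medians of 1.19, 1.47 and 1.24.

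Expansins and XTH wall enzymes went both ways. Of 25 genes, 3 were members. Of the other 22, 3 were lower after DMSO, 7 after coronatine and 6 after DPAM-1, and 8, 7 and 7 were higher, with medians of 0.22, 0.03 and 0.12. The expansin gene EXPA10 rose by 2.46 ± 0.16, 2.50 ± 0.16 and 2.47 ± 0.16, and EXPA1 by 1.78 ± 0.10, 1.33 ± 0.10 and 2.08 ± 0.10 (adjusted p at most 3.77e-09 by edgeR). XTH4 was lower at -0.53 ± 0.08, -0.39 ± 0.08 and -0.66 ± 0.08 (adjusted p = 2.68e-05, 0.000954 and 2.61e-06), short of the ratio of 0.7 after coronatine. Of 7 ribosome biogenesis genes 7, 6 and 5 were lower with medians of -0.32, -0.54 and -0.34, and 0 of these 7 were members. The NOP56-like member AT3G12860 was not on that list. Of 21 aquaporins 0 were members.

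**Figure D5:**
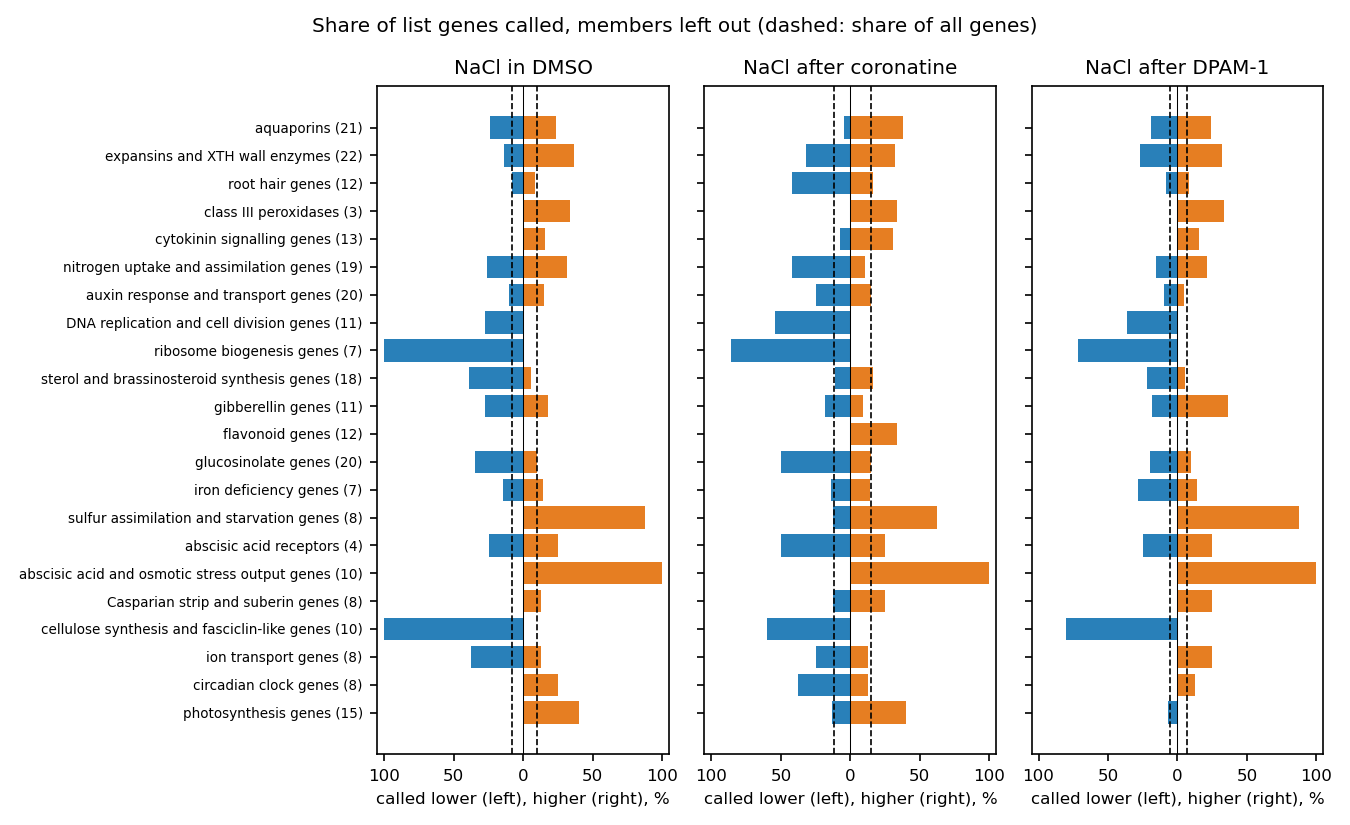
Share of the measured genes of each of 22 lists, with the members left out, called lower (blue, left) or higher (orange, right) with NaCl in the 3 pretreatments by edgeR, with the number of genes in brackets and dashed lines at the share of all genes. Cellulose synthesis and fasciclin-like genes and ribosome biogenesis genes lie to the left, abscisic acid and osmotic stress output genes to the right, and expansins and XTH genes on both sides.

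Promoter windows of 300 bases were available for 136 members and 14104 measured genes and were searched on both strands for 12 motifs. Each motif was searched only in the exact letters printed here. A window with another spelling alone, such as TGGGCT in place of TGGGCC, counts as lacking the motif. The site II element TGGGCC, known from promoters of ribosomal protein and cell growth genes, was in 9 member windows, or 6.62% against 21.2% of all measured genes, and the shares that follow are given in the same order. The 9 were AT3G09680, AT2G30600, AT5G58660, AGP21, LGT9, AT1G09660, AT3G12860, AT1G72600 and LYM3, with 2 each among the 6 ribosomal, nucleolar and replication genes and the 15 wall glycoproteins. The auxin response element TGTCTC was in 17.6% against 13.0%, the G-box CACGTG in 5.15% against 9.25%, the abscisic acid response core ACGTGT in 11.0% against 13.6%, and the W-box core TTGACC in 16.2% against 14.2%. The TATA box TATAAA was in 52.2% against 51.3%, the evening element AATATCT in 18 of 136 windows against 1694 of 14104, the type-B response regulator motif AGATAC in 9.56% against 10.8%, and the telo-box AACCCTA in 5.15% against 7.96%. The brassinosteroid response element CGTGCG was in 3.68% against 2.25%, the GCC box GCCGCC in 2.21% against 2.66% and the CAMTA core ACGCGT in 1.47% against 2.35%. A match is a description of letters and not a binding site.

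The members lay on all 5 nuclear chromosomes, with 41 on chromosome 1 (29.9%, beside 25.6% of the measured genes), 18 on chromosome 2, 24 on chromosome 3, 20 on chromosome 4 and 33 on chromosome 5, while 1 member had no match in the annotation used. In 2 cases members were separated by 1 annotated gene, AT1G72416 with AT1G72430 and AT1G72600 with GER1, both on chromosome 1. Strand use in the counting was not given in the sources used here, so reads of overlapping or antisense genes cannot be told apart.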

How the data were processed

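The counts of reads per gene were deposited by the authors as a table of 14229 genes in 18 libraries, and the same authors deposited the counts divided by 1 size factor per library (a normalized signal, with factors from 0.696 to 1.81 read off the values). The submitters' processing notes name bcl2fastq, Trimmomatic, HISAT2, featureCounts, DESeq2 and the TAIR10 build, with no role, order or version. The members were taken from the normalized values, and the counts were tested with edgeR 4.0.16 (with limma 3.58.1, under R 4.3.3). A quasi-likelihood model with TMM factors (0.847 to 1.13) and 6 group means was fitted to all 18 libraries. Its expression filter removed 0 genes, and the biological coefficient of variation was 10.4%. Tests were two-sided, and calls rest on an adjusted p under 0.05, adjusted by Benjamini and Hochberg's method over all 14229 genes. The fit was tested on simulated data first.

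The members and the lists were chosen with earlier results of these data known, and the roles were assigned by hand to the members. Of 349 places in the 22 lists, 332 codes matched their names in the TAIR10.1 annotation and the others were dropped. Genes were named by a rule: the 15 lowest by mean log2 ratio, up to 4 members of each list, the extremes of each compound comparison (5 and 5 without NaCl, 3 and 3 under NaCl), the 3 widest ranges of ratios and the 2 genes on each side of the threshold. Further members are named as parts of families or as examples chosen after their values were seen. TAIR10.1 was used for names, chromosomes and the windows around gene starts, and the nuclear chromosomes have the same lengths as in TAIR10. Alternatives were other scalings, filters and thresholds, DESeq2 1.42.0, a block for the replicate number, a fit to the 2 groups compared alone, and each library left out. The numbers were checked for pairing with the correlation of deviations from group means: it was 0.127, 0.302 and 0.497 for same-numbered DMSO and coronatine libraries without NaCl, so that these count as paired, and not above 0.1 in every pair elsewhere. Replicates differed by more than sampling noise in every group. Reads carry no molecular identifiers and so do not count independent molecules. Library totals without TMM, and the block with the 2 groups alone, were added after the data had been seen.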

Additional observations from a re-analysis of the deposited data

How the results depend on the processing

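The number of members depends on the threshold, with 48 genes at ratios of at most 0.6 and 429 at most 0.8, against 137. It was 138 with TMM, 141 with medians, 153 under upper-quartile scaling and 169 under library totals, and lay between 117 and 151 when libraries were left out in turn. Asking in addition for a log2 change of at least 1 left 43 lower and 7 higher for coronatine without NaCl (87 and 11). Under NaCl it left 46 and 7 (89 and 12), and for DPAM-1 0 in both directions and conditions. Shares of all genes were not taken for this threshold or for the alternatives that follow. The counts show how the calls depend on the settings and are not read as results about the members. Leaving out each library gave 80 to 83 lower and 10 to 12 higher for coronatine without NaCl, and 83 to 95 and 10 to 13 under NaCl. For DPAM-1 it gave 0 to 3 lower and 0 to 2 higher without NaCl, and 0 to 13 and 0 to 1 under NaCl, where the main counts were 3, 0, 2 and 1. With the replicate block, DPAM-1 without NaCl had 5 lower and 1 higher. With only the 2 groups compared it had 5 and 2, and with these groups and the block 5 and 4. Under NaCl both of these fits gave 0 lower and 0 higher, DESeq2 gave 5 and 2, and upper-quartile factors and library totals each gave 0 higher. The block changed no coronatine count by more than 1.5 times. It gave 87 lower and 12 higher without NaCl and 88 and 12 under NaCl. This block was fitted over all 6 groups, although only the DMSO and coronatine libraries without NaCl counted as paired. The causes were not tested. Of 58 called results of single genes, 0 changed direction and 10 lost the call under an alternative. Depth limits the low members: 48 had fewer than 100 reads in some library.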
